A study of Mus musculus with 10 samples.

Results

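Gnas and Meg3, a pair of imprinted genes with many counts in mouse cortex, were followed through 10 RNA sequencing libraries, 5 from wild-type (WT) animals and 5 from animals homozygous for dTPR, an allele of Stip1 whose product STI1 lacks its TPR1 domain. STI1 is the co-chaperone that links HSP70 to HSP90. All animals had a C57BL/6 background, WT animals were 442 to 663 days old and dTPR animals 541 to 630 days, and no treatment or sex is given in the labels. A small piece of cortex from 1 hemisphere of each animal was used, and each library is a different animal. The 2 genes were chosen by their high counts in these libraries among imprinted loci, so their place in the order of levels is a description. The rule of choice did not use the comparison between genotypes, though earlier results of these data were known. They are 2 of 7385 genes that could be assigned counts from 53090 deposited gene IDs.

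Imprinted genes are read mainly from the chromosome inherited from 1 parent. The Gnas locus makes several overlapping products from separate first exons joined to shared later exons: Gs alpha, the G protein subunit that couples receptors to adenylyl cyclase and cAMP, the paternally expressed extra-large form XLas, and the maternally expressed secretory protein NESP55. Nespas is the paternally expressed antisense RNA of that locus. Meg3 is a maternally expressed long noncoding RNA of the Dlk1-Dio3 domain, where the maternal chromosome also gives Rian, Mirg and many microRNAs and the paternal chromosome gives Dlk1, Rtl1 and Dio3. Counts give the sum over both parental copies, so parental origin was not measured.

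Reads had been assigned to the strand that runs against the genes. Just 16.8% of IDs face exons of another gene, yet they held 94.2% of counts. Each gene was therefore given the counts of IDs for which it holds at least 90% of the opposite exon bases, which placed 88.0% of counts. The strand was inferred from these positions, not from reads. Gnas (ENSMUSG00000027523.19, GRCm38, chromosome 2, 174284320 to 174346744, plus strand) was counted at 1 ID, Gm20721 (ENSMUSG00000090625.1, minus strand, 174330319 to 174346712). The 13 exon blocks of Gm20721 span 1484 bases, of which 1469 face 12 stretches of Gnas exon, and these are 13.1% of the exon bases of Gnas. Meg3 (ENSMUSG00000021268.17, chromosome 12, 109541001 to 109571726, plus strand) was counted at 1 ID, Gm26906 (ENSMUSG00000097698.1, minus strand, 109568628 to 109571723), whose 1228 bases in 2 blocks all face Meg3 exon and are 6.8% of its exon bases.

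**Figure D1:**
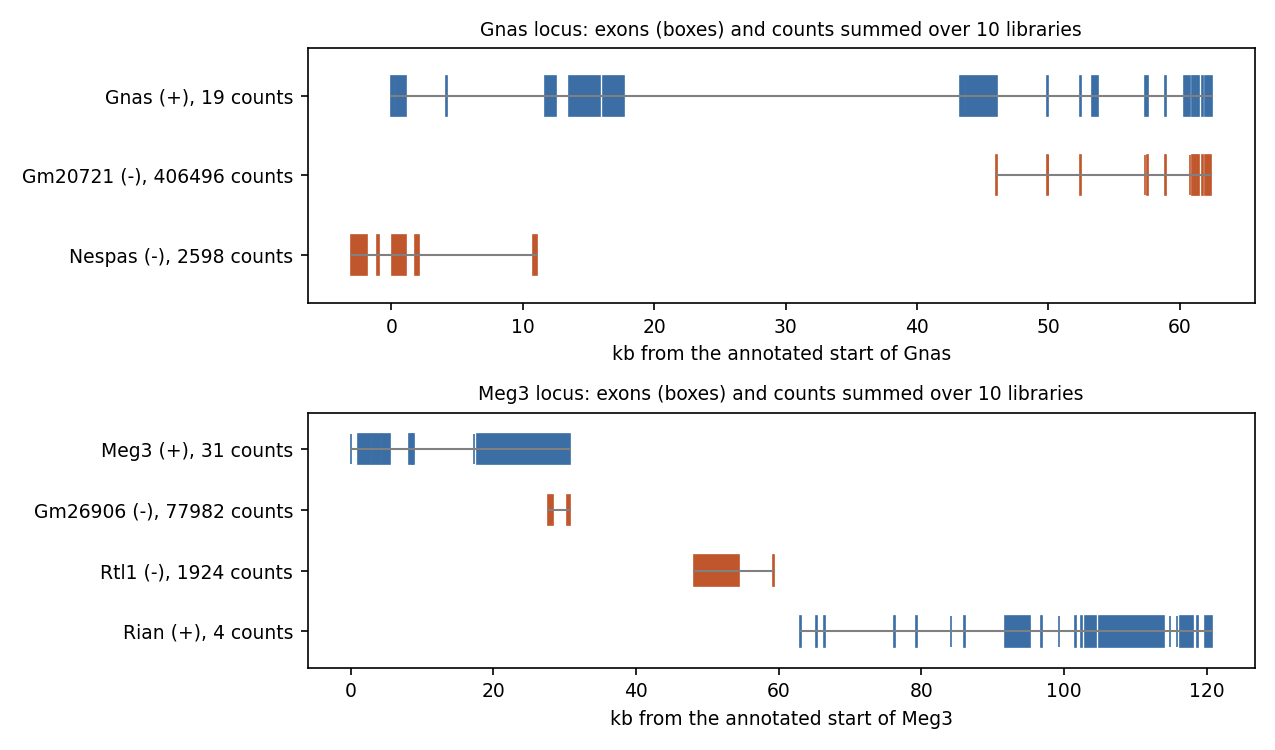
Exons of the counted genes and IDs of the 2 loci along the chromosome, in kb from the annotated start of Gnas or Meg3, with plus-strand exons in blue, minus-strand exons in orange and the summed counts of 10 libraries beside each name. The minus-strand IDs Gm20721 and Gm26906 hold 406496 and 77982 counts, and the IDs of Gnas and Meg3 themselves 19 and 31.

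The sequences below show what part of each transcript the counts can see. They are read 5′ to 3′ on the plus strand from the GENCODE M21 transcripts (GRCm38), and capitals mark bases that face an exon of the counted ID. The Gs alpha exon (chr2:174330296-174330434) is the first coding exon of Gnas-202, starts at its atg, and 116 of its 139 bases face Gm20721. The Meg3 stretches come from Meg3-209: 1 covers the upstream edge of the counted stretch (chr12:109568598-109568777) and 1 the 3′ end of the RNA (chr12:109571527-109571726). The NESP55 stretch (chr2:174284674-174284853, Gnas-211) opens the NESP55 reading frame, and all 180 bases face Nespas, not Gm20721.
Gs alpha first coding exon: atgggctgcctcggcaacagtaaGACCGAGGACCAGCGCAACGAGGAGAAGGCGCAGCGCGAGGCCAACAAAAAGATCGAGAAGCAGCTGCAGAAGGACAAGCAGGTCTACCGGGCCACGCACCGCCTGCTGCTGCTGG
Meg3 upstream edge: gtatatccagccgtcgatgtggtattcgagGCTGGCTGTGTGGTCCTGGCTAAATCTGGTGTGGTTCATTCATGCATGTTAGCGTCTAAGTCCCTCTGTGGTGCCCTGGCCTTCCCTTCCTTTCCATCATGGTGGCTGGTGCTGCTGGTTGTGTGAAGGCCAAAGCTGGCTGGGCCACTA
Meg3 end: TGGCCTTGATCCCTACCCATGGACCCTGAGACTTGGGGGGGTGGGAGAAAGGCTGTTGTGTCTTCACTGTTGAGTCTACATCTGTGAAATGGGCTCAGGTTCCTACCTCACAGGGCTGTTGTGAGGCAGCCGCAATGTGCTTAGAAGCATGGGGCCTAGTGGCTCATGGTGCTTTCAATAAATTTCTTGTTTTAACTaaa
NESP55 coding exon: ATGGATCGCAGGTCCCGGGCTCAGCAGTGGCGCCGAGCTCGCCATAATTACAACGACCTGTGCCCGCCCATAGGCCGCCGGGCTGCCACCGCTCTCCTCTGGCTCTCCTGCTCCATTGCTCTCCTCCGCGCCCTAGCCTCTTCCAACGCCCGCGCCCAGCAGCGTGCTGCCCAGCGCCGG

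Of 24 annotated Gnas transcripts, 21 face Gm20721 somewhere, and 5 contain the Gs alpha exon printed above. The other facing stretches lie in the shared later exons. The counts of Gnas therefore sum Gs alpha, XLas and NESP55 transcripts, which cannot be told apart at this ID. Of 11 Meg3 transcripts, 4 face Gm26906.

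The libraries held 667751 to 927242 deposited counts each. These totals are low, and as sums of assigned reads they do not give the sequencing depth. A value of 3 counts, the most that a count of 0 allows, was 3.24 to 4.49 CPM. CPM are counts scaled to a total of 1000000 over all deposited counts of a library. Stip1 had 0, 4, 0, 8 and 0 counts in WT animals 1 to 5 and 0, 8, 0, 5 and 0 in dTPR animals 1 to 5, too few to check the allele. Counted neuron markers, led by the synaptic vesicle gene Syp, summed to 14400 to 20800 CPM. Cortical excitatory neuron markers summed to 2370 to 8420 CPM, and striatal ones to 388 to 5310 CPM, highest in WT animals 2 and 3. The microglial gene Cx3cr1 and the glial genes Olig1 and Pdgfra were at 0 in every library. One library, dTPR animal 2, stood apart in the values below. Fold changes of Gnas, the Nespas and Rtl1 IDs and several imprinted genes are given with and without it.

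Gnas was the second most counted gene, with 5.14% of all counts on average, behind the mitochondrial ID mt-Nd6. In WT animals 1 to 5 it stood at 54650, 45380, 46110, 48010 and 53530 CPM. In dTPR animals 1 to 5 it stood at 45120, 72750, 51980, 48570 and 47400 CPM. The groups overlapped: 9 libraries lay between 45120 and 54650 CPM, and dTPR animal 2 lay above them all. Counts per library were 32061 to 50744, so counting error was at most 0.558% of a value.

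Gnas averaged 49540 ± 4286 CPM in WT and 53170 ± 11230 CPM in dTPR cortex (SD, n = 5 each). The log2 fold change, dTPR over WT, was 0.09 ± 0.13 (SE; edgeR quasi-likelihood test, adjusted p = 0.999, unadjusted p = 0.49), with a 95% interval of -0.18 to 0.362, or 0.883 to 1.29-fold. The exact permutation test of mean log2 CPM, two-sided over all arrangements of the animals, gave p = 0.69, where the smallest possible p is 0.0079. Without dTPR animal 2 the dTPR mean was 48270 ± 2859 CPM (n = 4) and the fold change -0.02 ± 0.09. A difference between genotypes was thus not shown, and its sign depended on 1 animal. In these bulk samples, fewer cells of a type and less RNA per cell cannot be told apart.

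Meg3 was the seventh most counted gene, with 0.976% of counts. In WT animals 1 to 5 it stood at 10970, 10340, 8041, 9484 and 9751 CPM. In dTPR animals 1 to 5 it stood at 10950, 8532, 9187, 10230 and 10110 CPM. The lowest library was WT animal 3 and dTPR animal 2 was the lowest of its group, and the dTPR values all lay within the WT range.

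Meg3 averaged 9716 ± 1097 CPM in WT and 9801 ± 946.7 CPM in dTPR cortex (SD, n = 5 each). The log2 fold change was 0.01 ± 0.13 (SE; edgeR quasi-likelihood test, adjusted p = 0.999), with a 95% interval of -0.268 to 0.278, or 0.831 to 1.21-fold, and the exact permutation test gave p = 0.905. Changes smaller than these bounds could not be resolved with 5 animals a group. Counting error was at most 1.3% of a value.

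**Figure D2:**
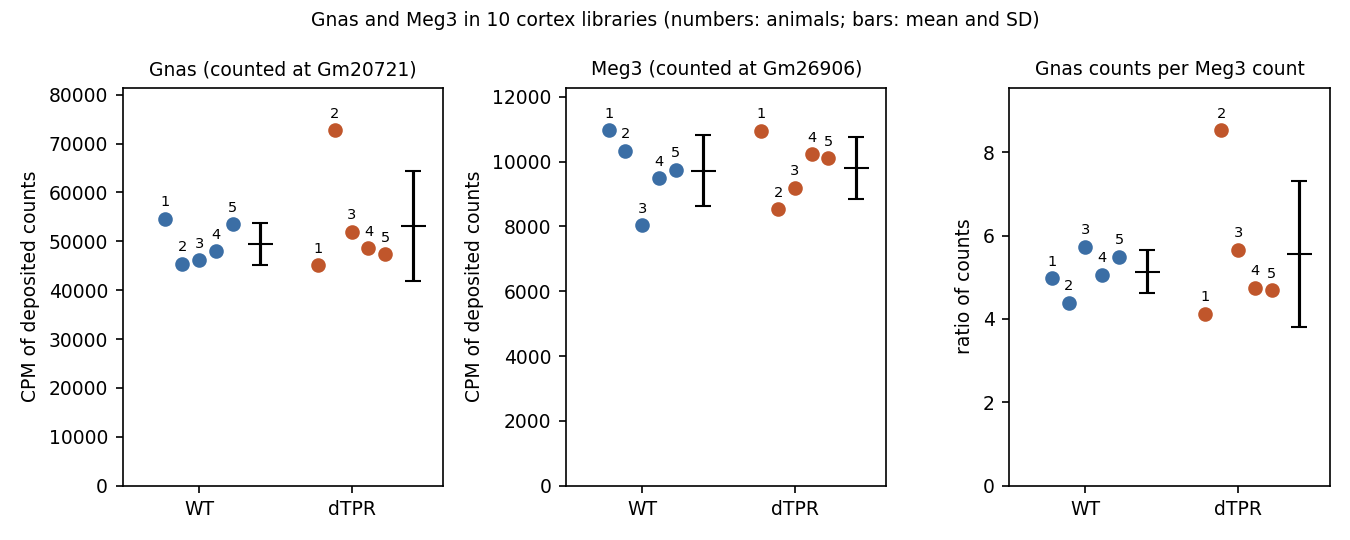
Gnas and Meg3 in CPM of deposited counts, and their ratio of counts, in each library by genotype, where numbers name the animals and bars give mean and SD of 5 animals. The genotypes overlap in all 3 panels, and dTPR animal 2 has the highest Gnas at 72750 CPM and the highest ratio at 8.53.

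For comparison with the whole table, 0 of 2019 tested genes (0%) were below the adjusted threshold of 0.05 with edgeR, whereas 57 (2.82%) had an unadjusted p under 0.05. DESeq2 also called 0 and had 138 of 5158 genes (2.68%) at an unadjusted p under 0.05, and limma-voom called 0 and had 87 of 2019 (4.31%). Groups did not overlap for 8 genes (0.396%), and neither Gnas nor Meg3 was among them. The SE of 0.13 for each of the 2 genes was below the median SE of 0.416 over all tested genes and near the 0.156 of the 108 genes above 1000 CPM.

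The ratio of Gnas to Meg3 counts does not depend on how libraries are scaled. It was 4.98, 4.39, 5.73, 5.06 and 5.49 in WT animals 1 to 5, and 4.12, 8.53, 5.66, 4.75 and 4.69 in dTPR animals 1 to 5. Its log2 change, Meg3 over Gnas, was -0.07 between genotypes (exact permutation p = 0.81), and 0.10 without dTPR animal 2. Per kb of counted exon, mean levels were 34600 CPM for Gnas and 7947 CPM for Meg3 over 10 libraries, and the ratio of Gnas to Meg3 on this per-length scale had a median of 4.16 and ran from 3.41 to 7.06. The ratio in dTPR animal 2 lay above the other 9, with the highest Gnas and the lowest Meg3 of its group.

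Across the 10 libraries, Gnas and Meg3 levels had Pearson r = -0.35 (permutation p = 0.33, adjusted 0.74 over 9 relations) and Spearman rho = -0.21 (permutation p = 0.56, adjusted 0.84). Leaving out the 2 libraries farthest from the median of Gnas, WT animal 1 and dTPR animal 2, gave r = -0.18, and leaving out dTPR animal 2 alone gave 0.11. By genotype, r was 0.52 in WT and -0.91 in dTPR with dTPR animal 2 included, and these values were not tested. The 9 relations were Gnas with Meg3, and each gene with age, library total, the share of counts at mt-Nd6 and the striatal marker level. None of them passed (lowest adjusted p 0.58 for r and 0.55 for rho, by permutation). Gnas with the mt-Nd6 share and Meg3 with the striatal marker level had the same r of -0.51 (permutation p = 0.13 each). For Meg3, rho was -0.35 (permutation p = 0.33) and r was -0.18 without WT animal 3 and dTPR animal 4. For Gnas, rho was -0.62 (permutation p = 0.061), and r was -0.38 without WT animals 2 and 3 but -0.69 without dTPR animal 2. By genotype, r of Gnas with the mt-Nd6 share was -0.82 in WT and -0.43 in dTPR, not tested. CPM totals include mt-Nd6, at 19.41 to 27.28% of counts, so a negative relation with its share is partly built in.

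Other IDs of each locus held few counts. Within 10 kb of Gnas there were 6 IDs, 3 of them counted, and Gm20721 had 99.36% of 409113 counts. The own ID of Gnas had 19 counts in all, 13 of them in WT animal 2 and 2 in each of dTPR animals 2, 3 and 4. From 10 kb before Dlk1 to 10 kb past Dio3 there were 118 IDs, of which 107 were at 0, and Gm26906 had 97.47% of 80010 counts. The own ID of Meg3 had 31 counts, between 0 and 7 a library. By strand, 100 plus-strand IDs of this domain shared 89 counts and 18 minus-strand IDs 79921. Rian had 4 counts, Mirg 2 and Dlk1 1. Reads had been assigned to the strand against the genes, so counts at these own IDs do not measure those RNAs. Rian, Mirg and Dlk1 face no exon on the other strand, so no other ID measures them either. The microRNA IDs Mir127, Mir432 and Mir3070a had 17, 11 and 8, and Gm24321 and 4930425K24Rik 15 each.

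The Nespas ID was the other ID at Gnas with 50 or more counts (chromosome 2, 174281237 to 174295436, minus strand). Of its 3143 exon bases 1210 face another exon, and 988 of these (81.7%, under the 90% asked for) face the NESP55 exons of Gnas, so its counts were not added to Gnas. Counts were 73, 451, 626, 42 and 2 in WT animals 1 to 5, and 35, 1288, 23, 22 and 36 in dTPR animals 1 to 5. WT animals 2 and 3 and dTPR animal 2 were high, and the other 7 libraries had at most 73. At 1847 CPM, dTPR animal 2 was far above the next of its group, at 47.55 CPM.

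The Nespas ID averaged 272.4 ± 309.3 CPM in WT and 399 ± 809.4 CPM in dTPR (SD, n = 5 each). Its edgeR log2 fold change was 0.49 ± 1.59 (SE, edgeR adjusted p = 0.997). The mean of log2 CPM had the opposite sign, -0.28 (exact permutation p = 0.857). Without dTPR animal 2 the fold change was -2.93 ± 1.28 (edgeR unadjusted p = 0.0527, adjusted p = 0.995), and without WT animals 2 and 3 it was 2.88 ± 2.11. Of the 10 libraries left out singly, only dTPR animal 2 turned the sign in edgeR. These counts may come from NESP55 RNA, from the other exons that the ID faces, or from its bases that face no exon. The sources cannot be told apart in the deposited sums.

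Rtl1, a retrotransposon-derived gene of the paternal chromosome, is the other ID of the Meg3 domain with 50 or more counts (chromosome 12, 109589193 to 109600330, minus strand). It faces 6 microRNA hairpins, Mir431, Mir433, Mir127, Mir434, Mir432 and Mir136, over 516 bases. These microRNAs are made from the maternal strand that runs antisense to Rtl1, and they can pair fully with Rtl1 RNA. Mature forms of a pair of these hairpins are printed here from RefSeq (GRCm38.p6, plus strand), with the seed, bases 2 to 8, in capitals. No seed is shared among the 4.
miR-127-5p: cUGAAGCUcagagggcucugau
miR-127-3p: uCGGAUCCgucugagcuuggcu
miR-433-5p: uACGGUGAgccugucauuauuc
miR-433-3p: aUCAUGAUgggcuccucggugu

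Counts at the Rtl1 ID were 134, 278, 156, 187 and 157 in WT animals 1 to 5, and 247, 239, 117, 200 and 209 in dTPR animals 1 to 5. The groups overlapped, and 3 dTPR animals lay above the WT mean on the log2 CPM scale. Means were 223.2 ± 61.52 CPM in WT and 262.2 ± 69.36 CPM in dTPR (SD, n = 5 each). The log2 fold change was 0.23 ± 0.24 (SE; edgeR adjusted p = 0.997, exact permutation p = 0.349). In CPM, dTPR animal 2 was the highest library at 342.7, and without it the fold change was 0.11 ± 0.25. Without WT animal 2 it was 0.39 ± 0.24. Among 3027 tested gene IDs, to which Nespas and Rtl1 belong, 0 (0%) passed the adjusted threshold in edgeR and 77 (2.54%) had an unadjusted p under 0.05. DESeq2 called 0 as well, with 279 of 14395 IDs (1.94%) at an unadjusted p under 0.05, and so did limma-voom, with 125 of 3027 (4.13%). The hairpins fill a small part of the Rtl1 exons, and RNA from the rest of that strand was not separated from them.

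**Figure D3:**
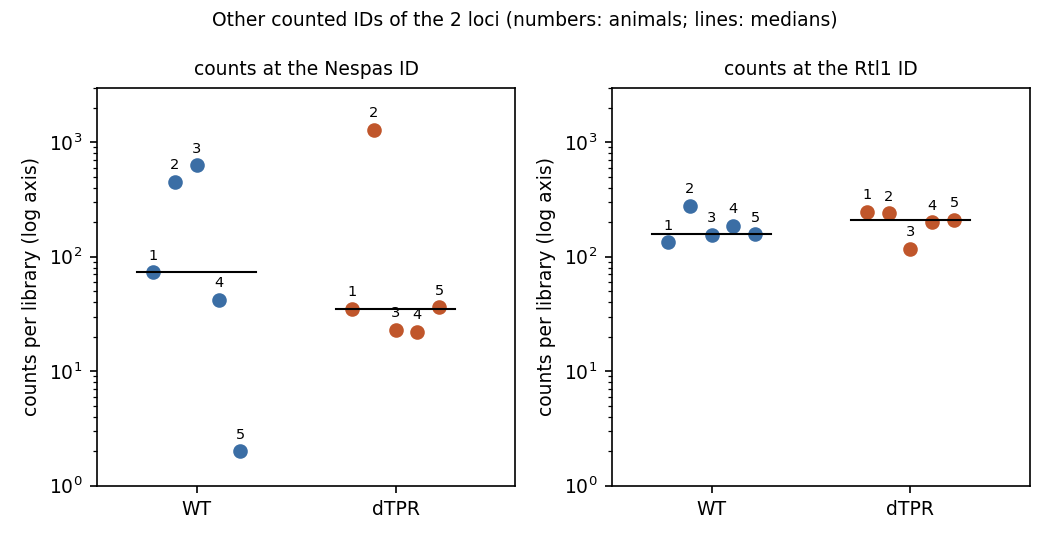
Counts per library (log axis) at the Nespas and Rtl1 IDs by genotype, where numbers name the animals and lines mark medians. Nespas runs from 2 counts in WT animal 5 to 1288 in dTPR animal 2, whereas Rtl1 runs from 117 to 278.

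In dTPR animal 2, some markers of other brain regions or cells were also high, and others were not. From lists written after this library had been seen to stand apart, hypothalamic genes summed to 357 CPM there against 0 to 17.4 CPM in the other 9 libraries, over 3 of 25 genes with a counted ID. Pmch, the melanin-concentrating hormone precursor of lateral hypothalamic neurons, had 226 counts in dTPR animal 2, 7 in WT animal 3 and 0 in the other 8. Irs4, an insulin receptor substrate of hypothalamus, had 16 counts there and at most 3 elsewhere. The third, Rax, was not highest there, at 10.04 CPM against 0 to 17.41 CPM.

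Dense-core vesicle and neuroendocrine genes summed to 10200 CPM in dTPR animal 2 against 3610 to 5060 CPM in the others, over 4 of 17 genes counted. Resp18, of neuroendocrine secretory granules, was at 5005 CPM against 747.2 to 1939 CPM, and Baiap3, which acts in dense-core vesicle traffic, at 2227 CPM against 38.57 to 821.8 CPM. Baiap3 was next highest in WT animals 2 and 3, at 821.8 and 742.1 CPM, the libraries that were also next highest for the Nespas ID. Ptprn and Pcsk2, of the same list, were not highest there, at 2164 and 807.2 CPM. Slc18a2, the vesicular monoamine transporter, had 40 counts in dTPR animal 2 and at most 17 elsewhere. The monoamine neuron list it belongs to, with 2 of 15 genes counted, summed to 57.4 CPM there against 0 to 20.9 CPM. Summed choroid plexus and ependyma markers were 262 CPM against 1.24 to 250 CPM, all of it from Rarres2, while Kcnj13, the other counted marker, was at 0 there. Oligodendrocyte markers were at 2290 CPM against 842 to 2250 CPM, astrocyte markers 262 CPM against 332 to 519 CPM, and striatal markers 1700 CPM, inside the range of the others. The part of these other cells or regions in the values of Gnas and the Nespas ID was not tested.

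**Figure D4:**
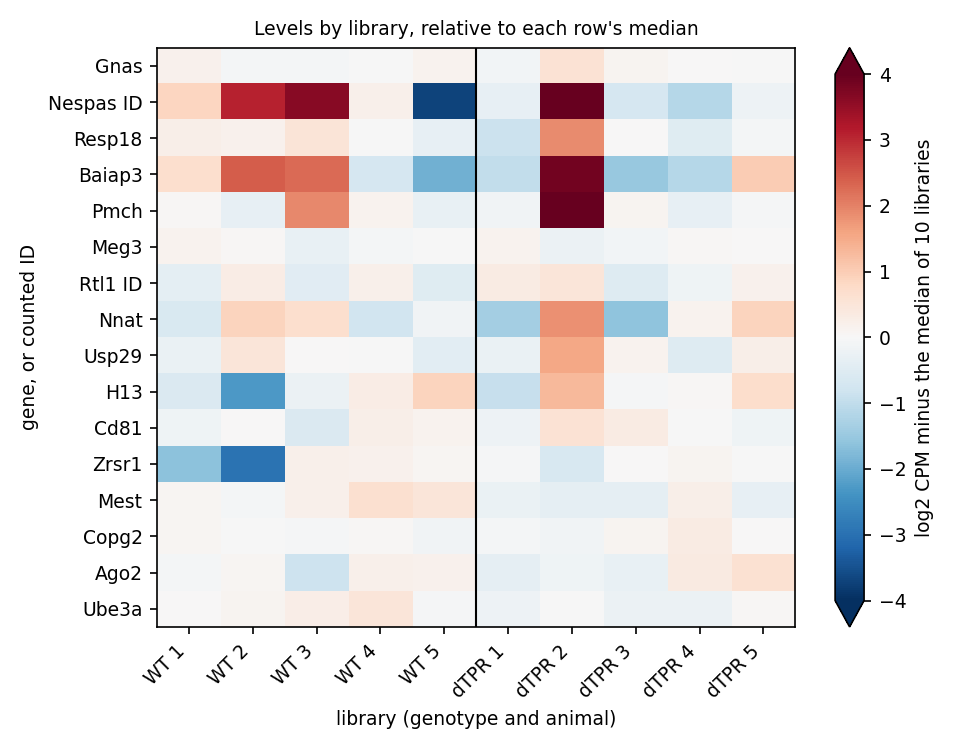
Log2 CPM minus the median of 10 libraries, for genes or counted IDs (rows) in each library (columns, WT left of the line). Rows are Gnas, Meg3, the Nespas and Rtl1 IDs, Resp18, Baiap3, Pmch and the other tested imprinted genes. Resp18 and Baiap3, of dense-core vesicles, and Pmch, of hypothalamus, were picked after their values were seen. Ptprn, Pcsk2 and Rax of the same lists, not highest in dTPR animal 2, are not shown, nor is Irs4, which was. Red marks levels above the row's median. The dTPR 2 column is highest for Gnas, the Nespas and Rtl1 IDs, Resp18, Baiap3, Pmch, Nnat, Usp29, H13 and Cd81.

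The genes whose levels followed Gnas most closely over the 10 libraries were sought among 2018 other tested genes, by Pearson r of log2 CPM with TMM scaling, which differs from the CPM above. They were Resp18 (r = 0.837), Rarres2, which encodes the secreted protein chemerin (0.835), Dgkq, a diacylglycerol kinase (0.835), 1700088E04Rik (0.825) and Wdr6, a WD repeat protein (0.809). All 5 were highest in dTPR animal 2, for example Wdr6 at 5101 CPM against 1313 to 2469 CPM. Without that library, r fell to 0.349 for Resp18, 0.762 for Rarres2, 0.546 for Dgkq, 0.467 for 1700088E04Rik and 0.221 for Wdr6. The likeness of Resp18 and Wdr6 to Gnas thus rested largely on 1 animal.

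Meg3 was followed most closely by Tesk1, a protein kinase (r = 0.907), Rnaseh2c, a subunit of RNase H2 (0.901), B230104I21Rik (0.895), Ppif, the mitochondrial cyclophilin (0.882), and Tsix, the antisense RNA of Xist, as counted at the Xist ID (0.881). These values stayed between 0.833 and 0.909 without dTPR animal 2. Tesk1 was abundant, at 5547 to 7850 CPM in the other 9 libraries and 6501 in dTPR animal 2, whereas Tsix averaged 18.75 CPM and B230104I21Rik 22.11 CPM. All libraries share these counts' totals and scaling, and the highest of 2018 values of r are high by selection, so no p is given.

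Of 83 imprinted genes listed, 27 had a counted ID opposite, 20 were above 0 and 11 passed the filter on low counts. Of the 11, 0 passed the adjusted threshold in edgeR, 9 had positive and 2 negative fold changes, and the median log2 fold change was 0.142 against 0.002 for all 2019 tested genes, of which 50.2% were positive. Without dTPR animal 2 the tally was 6 positive and 5 negative, with a median of 0.061 against 0.005 for all genes of that fit and again 0 passing in edgeR. H19, Plagl1, Zdbf2, Slc22a3, Zim3, Jade1 and Nespas, as judged at the IDs opposite to them, were at 0 in every library. Mest, a paternally expressed hydrolase gene, was the 1 gene with an unadjusted p under 0.05.

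Mest averaged 414.5 ± 87.05 CPM in WT and 293.6 ± 59.42 CPM in dTPR (SD, n = 5 each; log2 fold change -0.49 ± 0.19, edgeR unadjusted p = 0.0161, adjusted p = 0.999). By animal it stood at 357.3, 319.2, 388.6, 530.1 and 477.2 CPM in WT and at 277.6, 260.9, 259.7, 399.1 and 270.8 CPM in dTPR. Only dTPR animal 4 reached into the WT range. Mest and its neighbour Copg2, which encodes a coatomer subunit, face each other over 912 bases and each is counted at the ID of the other. Copg2 was at 0.07 ± 0.16. Ube3a, the ubiquitin ligase read from the maternal copy in neurons, averaged 622 ± 97.21 CPM in WT and 503.4 ± 49.81 CPM in dTPR (-0.31 ± 0.16, edgeR adjusted p = 0.999). It was counted mainly at Snhg14, which runs antisense to it.

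Nnat, the paternally expressed neuronatin gene of the endoplasmic reticulum, varied widely between animals. It was at 2056, 5760, 4933, 1815 and 2857 CPM in WT animals 1 to 5, and at 1211, 11010, 1017, 3404 and 5842 CPM in dTPR animals 1 to 5. WT animals 2 and 3 and dTPR animals 2 and 5 were the high ones, and the fold change of 0.32 ± 0.70 became -0.28 ± 0.65 without dTPR animal 2. These counts came from a single small ID, Gm23134, over 87 bases. Usp29, a paternally expressed deubiquitinase gene, was at 572.1 CPM in dTPR animal 2 against 135.2 to 276.1 CPM elsewhere, and its fold change of 0.39 ± 0.34 became -0.08 ± 0.26 without it.

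The other 4 imprinted genes did not pass either. H13, a signal peptide peptidase, was at 0.49 ± 0.50 and at 0.17 ± 0.47 without dTPR animal 2, where it was highest. Cd81, a tetraspanin, was at 0.17 ± 0.18 and at 0.06 ± 0.17 without that animal, again its highest library. Zrsr1, a splicing factor gene, was at 0.32 ± 0.47, at 0.05 ± 0.37 without WT animal 2 and at 0.87 ± 0.475 with limma-voom. Ago2, the Argonaute that cuts RNA, was at 0.14 ± 0.33. Of the 11 tested imprinted genes, Gnas, Nnat, Usp29, H13 and Cd81 had their highest value in dTPR animal 2, and Meg3, Mest, Copg2, Ube3a, Zrsr1 and Ago2 did not.

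**Figure D5:**
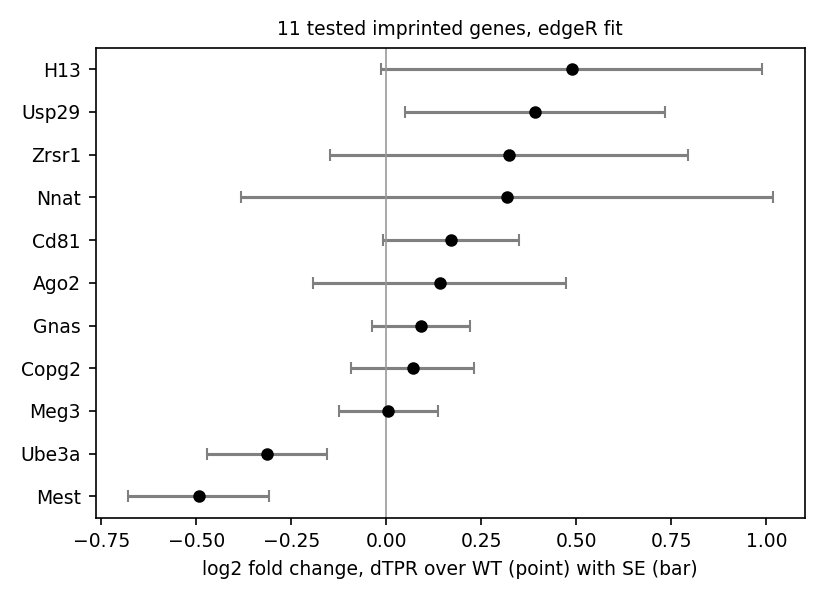
Log2 fold changes, dTPR over WT, of the 11 tested imprinted genes (points) with SE (bars), from the edgeR fit over 5 animals a genotype. Meg3 and Gnas lie near 0 with SE of 0.13, Mest is lowest at -0.49, and no gene passed the adjusted threshold.

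Genes that act with Gs alpha were also mostly unmeasured: 19 of 84 Gs and cAMP pathway genes had a counted ID and 12 were tested. Of these, 0 passed the adjusted threshold and 0 had an unadjusted p under 0.05 in edgeR, with 5 positive and 7 negative fold changes and a median of -0.087 against 0.002 for all tested genes. Without dTPR animal 2 they were 4 positive and 8 negative (median -0.126, 1 with an unadjusted p under 0.05, Gnal), and without WT animals 2 and 3 likewise 4 and 8 (median -0.188). Gng13, a G protein gamma subunit, was the most abundant after Gnas, at 853.9 ± 252.7 CPM in WT and 944 ± 220.4 CPM in dTPR (SD, n = 5 each; log2 fold change 0.15 ± 0.20).

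Ppp1r1b, whose product DARPP-32 is a target of cAMP-dependent kinase in striatal neurons, was at -1.41 ± 0.63 (edgeR unadjusted p = 0.0516, adjusted p = 0.999). It was highest in WT animals 2 and 3, at 1225 and 1898 CPM, which had the highest striatal markers. Ppp1r1b is itself 1 of the 4 counted striatal markers, so these observations are not independent. Without these animals its fold change was -0.54 ± 0.63, but leaving out its highest libraries lowers the WT mean by construction. Gnal, the Gs-like alpha subunit of olfactory and striatal neurons, was at -0.40 ± 0.23 and at -0.07 ± 0.24 without these 2 animals. They held its highest WT values too, at 622.3 and 541.6 CPM, so the same limit holds. Without them Gnas was at 0.07 ± 0.15 and Meg3 at 0.01 ± 0.15.

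Of 14 other G protein alpha genes, 2 were tested and 0 passed. Gna12 of the G12 class averaged 339.2 ± 72.06 CPM in WT and 472.5 ± 117.2 CPM in dTPR (SD, n = 5 each; 0.48 ± 0.19, edgeR unadjusted p = 0.024, adjusted p = 0.999). Gnao1, the abundant Go subunit of brain, was at -0.16 ± 0.44 and, without dTPR animal 2, at 0.000114. Of 24 brain long noncoding RNAs, 8 had a counted ID and 3 were tested, with 0 passing. Besides Meg3 these were Miat, of neuronal nuclei, at 0.32 ± 0.26, and Malat1, of nuclear speckles, at -0.11 ± 0.58, whose counts averaged only 26.16 CPM. Miat was at 0.03 ± 0.24 without WT animals 2 and 3. These were its lowest WT libraries, at 980.3 and 731.9 CPM, so leaving them out raises the WT mean by construction.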

How the data were processed

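Per the labels' protocols, TRIzol extracts of dissected cortex were made into single-end libraries with the SENSE Total RNA-Seq kit. The submitters' processing notes name the build GRCm38.p5 and the tools TopHat, HTSeq and DESeq2, while versions and strand settings are not given in the sources used here. Deposited per library were raw counts for 53090 gene IDs, 52403 of them found in GENCODE M21 (GRCm38), and 0 rows named no gene. All counts of an ID, also from bases that face nothing, went to the gene with 90% or more of its facing exon bases (8188 IDs, 7385 genes). The 2 genes and the gene lists were chosen with earlier results of these data known, and the hypothalamic, dense-core vesicle and monoamine lists after dTPR animal 2 had been seen to stand apart.

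Fits used edgeR 4.0.16 in R 4.3.3 with TMM factors, filterByExpr, robust quasi-likelihood tests and Benjamini-Hochberg adjustment over all 2019 tested genes, threshold 0.05. CPM use all deposited counts, and log2 CPM a prior count of 2. Exact permutation tests were two-sided, and relations used 100000 resamples. Alternatives were DESeq2 1.42.0, limma-voom (limma 3.58.1), other scaling and filters, age, animal number, mitochondrial IDs left out, and libraries left out. Named were both genes, the locus IDs with 50 or more counts, the 5 genes most like each, all tested imprinted genes, and the 2 most abundant and the 2 of smallest p in other lists. Further IDs and genes named were chosen after their values were seen. Intervals cover the spread between animals for fold changes. Counts without molecular identifiers are not independent molecules. The fit was tested on simulated data with known changes.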

Additional observations from a re-analysis of the deposited data

Results flagged for a closer look

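Among 28 groups of 5 animals examined, 14 quantities in each genotype, 5 had a sample far from the other 4 by Dixon's test (critical value 0.71), where chance gives about 1 in 20 groups. Gnas in dTPR animal 2 was highest, at 72750 CPM with the next at 51980 CPM. The Nespas ID in dTPR animal 2 was highest, at 1847 CPM with the next at 47.55 CPM. Usp29 in dTPR animal 2 was highest, at 572.1 CPM with the next at 229.8 CPM. Zrsr1 in dTPR animal 2 was lowest, at 61.65 CPM with the next at 94.17 CPM. Mest in dTPR animal 4 was highest, at 399.1 CPM with the next at 277.6 CPM. These groups share libraries, so 4 of the 5 come from 1 animal and are not independent.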

How the results depend on the processing

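For Gnas, 20 of 21 alternatives kept the sign of the log2 fold change and none of the 21 brought it past the threshold in edgeR, DESeq2 or limma-voom (0.0426 to 0.117 with all libraries or WT animals 2 and 3 left out, adjusted p from 0.792 to 1). With each library left out in turn it ran from -0.0249 (without dTPR animal 2) to 0.147, and mean log2 CPM from -0.035 to 0.137. For Meg3 the value lay so near 0 that 9 of 21 alternatives turned its sign: -0.00305 with DESeq2 size factors, -0.00995 with upper-quartile factors, -0.00228 with DESeq2, and -0.0504 to 0.0683 with each library left out, none past the threshold. Mean log2 CPM of Meg3 was -0.0195 with mitochondrial IDs left out and -0.0516 to 0.0634 with each library left out, and the Meg3 to Gnas difference -0.164 to 0.0984. Without a filter, 2 opposite-strand genes of 5176 and 2 gene IDs of 14428 were called, in place of 0, with 542 and 1300 at an unadjusted p under 0.05. The numbers at an unadjusted p under 0.05 otherwise ran from 45 (without WT animal 3) to 138 (DESeq2, of 5158 genes, or 2.68%), with 102 without WT animal 5 and 89 without dTPR animal 2, against 57 of 2019 (2.82%).

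Single genes turned sign as follows, the cause not tested: Nnat -0.0404 with limma-voom, Nespas -0.404 with limma-voom, Gng13 -0.00675 and Gnao1 0.115 without WT animals 2 and 3. With each library left out, Malat1 ran from -0.414 to 0.243, Gnao1 from -0.493 to 0.0661, Ago2 from -0.0419 to 0.242, Copg2 from -0.0143 to 0.132, Nnat from -0.285 to 0.625, Usp29 from -0.0756 to 0.599, and Nespas from -2.93 to 1.21. Alternatives for single genes and gene IDs were added after seeing the data.

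Animal numbers name different animals in each genotype. Deviations of same-numbered animals correlated at 0.0766, 0.0975, -0.108, 0.0719 and -0.0352 over 2019 genes, and only animals 1 and 2 correlated best with their own number. With the number as a replicate block, Gnas was at 0.0744 ± 0.15 (edgeR adjusted p = 0.992), Meg3 at 0.00643 ± 0.152, Nespas at -0.384, and 0 opposite-strand genes were called, with 50 at an unadjusted p under 0.05. Low counts limit the Nespas ID, at 2 counts in 1 library, and genes at 0 are not shown to be absent.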
